A study of Homo sapiens with 21 samples.

Results

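The genes of the apoptosome and the PIDDosome, together with an executioner caspase, were examined in the RNA-seq data: APAF1, CYCS, CASP9 and DIABLO of the apoptosome pathway, the executioner CASP6, and PIDD, CRADD and CASP2 of the PIDDosome. They were chosen by gene symbol, and all 8 were found among the 23368 genes listed and among the 19694 that varied and were tested. PIDD is the gene now called PIDD1. RNA came from hTERT-HPNE cells, a pancreatic line immortalized with telomerase and not transformed. In total, 21 libraries were sequenced, 3 biological replicates for each of 7 groups. These were untreated cells at 0 h, cells given 300 μM H2O2 for 4, 8 or 24 h, and cells given 400 ng/ml neocarzinostatin (NCS) for 4, 8 or 24 h. H2O2 causes oxidative stress, and NCS is a radiomimetic drug that breaks both strands of DNA. By the study's methods the medium was replaced with fresh medium at treatment, so effects of time in fresh medium and effects of treatment cannot be told apart in a comparison with untreated cells. A single dose of each agent was sequenced.

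In the intrinsic apoptotic pathway, cytochrome c (CYCS) leaves the mitochondria and binds APAF1, which assembles into a wheel-shaped complex, the apoptosome. This complex activates the initiator caspase CASP9, which in turn cleaves executioner caspases, while DIABLO, also released from mitochondria, relieves the block that inhibitor of apoptosis proteins place on caspases. The PIDDosome is a separate platform in which PIDD, a p53 target, and the adaptor CRADD (RAIDD) bring CASP2 molecules together after DNA damage or extra centrosomes. Activity of all these proteins is set largely by assembly and cleavage, neither of which RNA levels measure.

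The values are rLog values, log2-scale expression values normalized for library size. They shrink differences, and levels of different genes cannot be ranked because they are not divided by gene length. Library medians lay between 7.14 and 7.19, and the files hold no counts, so the depth is unknown. VIM, NES and COL1A1, expressed by mesenchymal-type cultured cells, lay between 11.78 and 18.06 in every library. Of the 4 duct markers, KRT7 and SOX9 lay between 5.78 and 7.17, while KRT19 and CFTR did not exceed 0.73. The 13 markers of acinar, islet, leukocyte and endothelial cells did not exceed 3.41, and PRSS1, CELA3A, INS and CD3E were listed at 0 throughout. The treatments were visible in CDKN1A, a p53 target, which was 1.21 to 1.62 higher than in untreated cells in all 6 treated groups, and in HMOX1, an oxidative stress gene, which was 3.44 higher after 4 h of H2O2 and 0.88 higher after 4 h of NCS. Replicate 2 of H2O2 at 8 h stood apart from its group, at distances of 14.7 and 15.1 across all tested genes, against 8.94 to 11.4 for every other pair of replicates. Results on H2O2 at 8 h are also given without it where a call changed and for the values that moved most.

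Across the 7 groups, 7 of the 8 genes varied by limma's F test at an adjusted p under 0.05, as did 70.6% of all tested genes. CRADD was the exception. The difference between the highest and the lowest group mean had a median of 0.37 over the 8 genes and of 0.24 over all genes tested. PIDD had the widest such range among the 8, 0.92, which exceeded that of 96.2% of tested genes. CASP2 followed with 0.60, wider than in 88.8% of genes. DIABLO and CRADD had ranges of 0.13 and 0.11. These comparisons with all tested genes are not matched for expression. The 8 members had means of 7.66 to 11.75, while 11681 of the 19694 tested genes had a mean of at least 5. The study applied its limit of a log2 fold change over 1 to DESeq2 output, a different measure from rLog differences, which are shrunk. No member passed a limit of 1 on rLog differences in any comparison. In H2O2 against untreated cells, 0.696%, 0.518% and 1.61% of tested genes passed it at 4, 8 and 24 h. In NCS the shares were 0.218%, 0.34% and 1.5%, and between the treatments 0.574%, 0.162% and 0.0152%. Between successive times they were 0.208% and 0.416% in H2O2 and 0.0152% and 0.371% in NCS, and for the change of the difference between treatments 0.223% from 4 h to 8 h, 0.0406% from 8 h to 24 h and 0.564% from 4 h to 24 h.

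**Figure D1:**
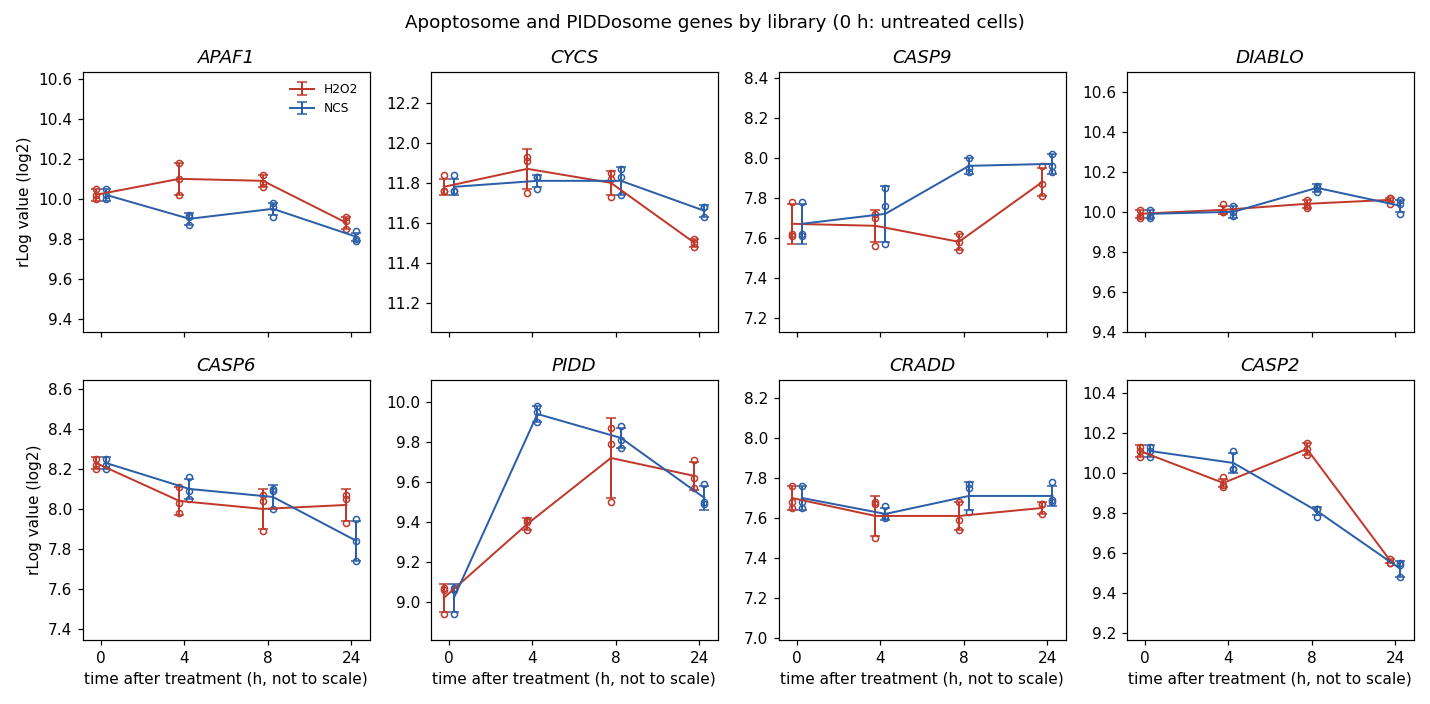
rLog values (log2, y axis, the same span in each panel) of the 8 genes against hours after treatment (x axis, evenly spaced and not to scale). Open circles are the 3 libraries of a group, lines join group means, bars are the SD, red is H2O2 and blue is NCS, and the untreated libraries are drawn at 0 h for both. PIDD rises from a mean of 9.02 to at most 9.94 and CASP2 falls from 10.11 to 9.56 and 9.52 at 24 h.

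Against untreated cells, the number of members past an adjusted p of 0.05 in H2O2 was 3, 2 and 7 by time, while 45.9%, 37.4% and 40% of all tested genes passed at these times. In NCS these numbers were 2, 5 and 6, while 17.2%, 23.9% and 38% of all genes passed. At 24 h the members moved in both directions. After H2O2, CASP9, DIABLO and PIDD were higher and APAF1, CYCS, CASP6 and CASP2 lower. After NCS, CASP9 and PIDD were higher and the same 4 genes were lower. The median absolute difference of the members at 4, 8 and 24 h of H2O2 was 0.08, 0.08 and 0.21, beside 0.08, 0.06 and 0.07 over all tested genes. In NCS it was 0.07, 0.15 and 0.26, beside 0.04, 0.04 and 0.07. All tested genes include barely expressed ones, so this background is not matched for expression. In a bulk sample, fewer cells expressing a gene and less RNA per cell cannot be told apart.

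**Figure D2:**
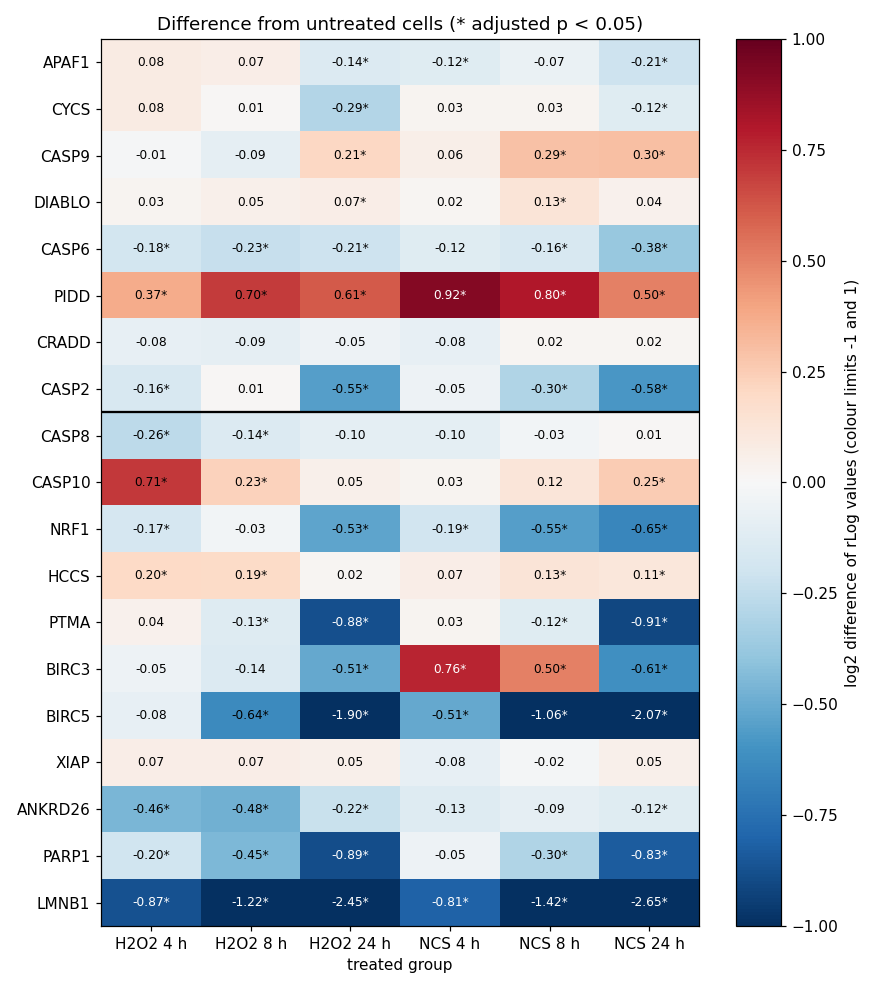
Log2 difference of rLog values from untreated cells (number and colour, colour limits -1 and 1) in the 6 treated groups, for the 8 members above the line and for 11 other caspase pathway genes below it. An asterisk marks an adjusted p under 0.05 by limma. PIDD is higher in all 6 treated groups, by 0.37 to 0.92, and LMNB1 is lower in all 6, by -0.81 to -2.65.

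The promoters of the PIDDosome genes that moved most are shown with that of CYCS, since a factor of the cytochrome c supply list, NRF1, is discussed with them. The sequences are RefSeq windows on GRCh38.p14 from 250 bases before to 50 bases after a start site, read 5′ to 3′ on the gene's strand, with capitals marking matches on either strand to the NRF1 consensus or, in CYCS, to the NRF1 core GCGCATGC. All 8 members matched at least 1 of these windows. The PIDD window lies at chr11:805182-805481 on the minus strand, the CASP2 window at chr7:143288101-143288400 on the plus strand and the CYCS window at chr7:25125211-25125510 on the minus strand.
PIDD: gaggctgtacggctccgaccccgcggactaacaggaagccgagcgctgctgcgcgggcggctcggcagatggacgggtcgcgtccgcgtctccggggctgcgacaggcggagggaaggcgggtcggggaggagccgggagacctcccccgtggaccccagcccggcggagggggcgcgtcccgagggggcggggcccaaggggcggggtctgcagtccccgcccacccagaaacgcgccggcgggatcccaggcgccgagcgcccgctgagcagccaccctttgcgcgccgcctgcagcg
CASP2: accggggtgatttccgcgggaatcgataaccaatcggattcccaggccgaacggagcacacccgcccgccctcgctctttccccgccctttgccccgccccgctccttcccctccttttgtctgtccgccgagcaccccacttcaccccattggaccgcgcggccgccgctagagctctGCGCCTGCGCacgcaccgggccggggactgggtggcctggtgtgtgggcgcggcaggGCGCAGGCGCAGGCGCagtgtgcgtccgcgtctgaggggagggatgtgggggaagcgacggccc
CYCS: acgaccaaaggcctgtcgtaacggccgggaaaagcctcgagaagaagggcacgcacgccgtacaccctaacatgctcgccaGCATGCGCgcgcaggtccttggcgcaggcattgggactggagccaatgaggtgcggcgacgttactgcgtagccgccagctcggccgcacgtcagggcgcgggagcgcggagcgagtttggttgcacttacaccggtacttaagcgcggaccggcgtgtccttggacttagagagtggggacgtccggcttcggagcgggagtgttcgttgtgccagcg
In the CASP2 window printed, the consensus matched at -71 to -62, -14 to -5 and -8 to 1, counted with the start site as 0, and the last pair of matches overlap. The other RefSeq window of CASP2, at chr7:143289338-143289637, held no match to any motif searched. The CASP2 windows held no match to the core and the CYCS window none to the consensus, so the capitals mark different motifs in these genes. The consensus was found in 5.78% of all 35116 RefSeq windows of this length and the core in 3.05%. The PIDD window held no match to either, nor to a p53 half-site, the AP-1 site TGANTCA, the antioxidant response core TGACNNNGC or the CRE TGACGTCA, which says only that these letters are not in this window. A p53 half-site matched in 1 window of CASP9, at -188 to -179, and in 6.63% of all windows. The AP-1 site matched in the CRADD windows that start at 93677125 and 93678519, not in the one at 93677321, and in 7.71% of all. The antioxidant response core matched in 1 CRADD window and 1 DIABLO window and in 13.3% of all.

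PIDD, the death domain protein that nucleates the PIDDosome, was higher than in untreated cells in every treated group. Untreated libraries held 9.07, 9.06 and 8.94. The 4 h libraries of H2O2 held 9.36, 9.40 and 9.41, the 8 h libraries 9.79, 9.50 and 9.87, and the 24 h libraries 9.71, 9.62 and 9.57. In NCS, the 4 h libraries held 9.90, 9.98 and 9.95, the 8 h libraries 9.88, 9.81 and 9.77, and the 24 h libraries 9.49, 9.59 and 9.50. Every treated library lay above every untreated one, with the highest values after 4 h of NCS. The difference from untreated cells was 0.37 (SE 0.07, adjusted p = 0.000197, limma) at 4 h of H2O2, 0.70 (SE 0.07, adjusted p = 1.7e-07) at 8 h and 0.61 (SE 0.07, adjusted p = 5.06e-07) at 24 h. After NCS it was 0.92 (SE 0.07, adjusted p = 1.69e-08), 0.80 (SE 0.07, adjusted p = 5.15e-08) and 0.50 (SE 0.07, adjusted p = 6.49e-06). The order of group means over time therefore differed. After NCS the PIDD mean was highest at 4 h, but its change from 4 h to 8 h did not pass (-0.12, 95% interval -0.26 to 0.02, adjusted p = 0.307). From 8 h to 24 h of NCS, PIDD fell by 0.30 (adjusted p = 0.00204). After H2O2 it gained a further 0.33 (adjusted p = 0.000562) from 4 h to 8 h. Without the replicate of H2O2 at 8 h that stood apart, this gain was 0.44 (adjusted p = 8.54e-07).

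At 4 h, PIDD was lower after H2O2 than after NCS, with a log2 difference of -0.55 (95% interval -0.70 to -0.41, adjusted p = 2.25e-06), and the libraries did not overlap. The difference was -0.10 (95% interval -0.24 to 0.04) at 8 h and 0.11 (95% interval -0.03 to 0.25) at 24 h, and neither passed the test. The change of this difference from 4 h to 24 h was 0.66 (SE 0.10, adjusted p = 2.4e-05). Without that replicate, PIDD at 8 h of H2O2 was 0.81 above untreated cells and 0.01 above NCS (adjusted p = 0.989), and its fall from 8 h to 24 h of H2O2, -0.09 with all libraries (adjusted p = 0.341), became -0.20 (adjusted p = 0.0025). In the order of group means, the libraries of NCS at 4 h did not overlap those of NCS at 8 h, though that difference did not pass. The ranges of NCS at 8 h, H2O2 at 8 h, H2O2 at 24 h and NCS at 24 h each overlapped the next. H2O2 at 4 h and untreated cells stood apart below them.

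PIDD1 lies at 799179 to 809753 on the minus strand of chromosome 11 (GENCODE, GRCh38) and shares exonic sequence with PANO1 and with RPLP2, a ribosomal protein gene, on the other strand. The setting of strand in the counting is not given in the sources used here, so reads of PIDD and of these genes may not be fully told apart. RPLP2, chosen for its position after its values were seen, had a mean of 12.94. It differed from untreated cells by 0.23 (adjusted p = 1.74e-05, limma), 0.11 (adjusted p = 0.013) and 0.00 at 4, 8 and 24 h of H2O2. In NCS the differences were 0.10, 0.04 and 0.05, and none passed. RPLP2 was thus higher than in untreated cells at 4 h and 8 h of H2O2, as PIDD was. Between the agents at 4 h it was 0.14 higher after H2O2 (adjusted p = 0.0032), where PIDD was lower. No values are given for PANO1, and whether reads were shared was not tested.

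CASP2, the initiator caspase that the PIDDosome activates, followed another course. The untreated libraries held 10.13, 10.11 and 10.08. The 4 h libraries of H2O2 held 9.93, 9.94 and 9.98, the 8 h libraries 10.12, 10.09 and 10.15, and the 24 h libraries 9.57, 9.55 and 9.55. In NCS, the 4 h libraries held 10.02, 10.11 and 10.02, the 8 h libraries 9.82, 9.82 and 9.78, and the 24 h libraries 9.48, 9.54 and 9.55. All 6 libraries of 24 h lay below all others. With H2O2, the values were lower at 4 h, back within the untreated range or just above it at 8 h, and lowest at 24 h, whereas with NCS the group means fell at each step. Against untreated cells, CASP2 differed by -0.16 (SE 0.03, adjusted p = 9.77e-05) at 4 h of H2O2 and by -0.55 (SE 0.03, adjusted p = 5.92e-12) at 24 h, and at 8 h the difference was 0.01 (95% interval -0.04 to 0.07, adjusted p = 0.815). In NCS it was -0.05 (adjusted p = 0.211) at 4 h, -0.30 (SE 0.03, adjusted p = 1.21e-07) at 8 h and -0.58 (SE 0.03, adjusted p = 2.76e-12) at 24 h. Without replicate 2 of NCS at 4 h, the value at that time was -0.08 and passed the test (adjusted p = 0.0474).

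The direct comparison of treatments changed sign for CASP2. It was lower after H2O2 than after NCS at 4 h, with a difference of -0.10 (SE 0.03, adjusted p = 0.00446), and higher at 8 h, with one of 0.31 (SE 0.03, adjusted p = 9e-08). At 24 h the difference was 0.03 (95% interval -0.03 to 0.09, adjusted p = 0.507). The change from 4 h to 8 h was 0.42 (SE 0.04, adjusted p = 2.54e-07). Leaving out replicate 2 of H2O2 at 8 h left CASP2 at 0.33 above NCS and 0.03 above untreated cells (adjusted p = 0.571). From 4 h to 8 h, CASP2 gained 0.17 (adjusted p = 4.55e-05) in H2O2 and fell by 0.25 (adjusted p = 5.46e-06) in NCS. CASP2 lies at 143288215 to 143307696 on the plus strand of chromosome 7 (GRCh38). At 24 h, then, PIDD stood above and CASP2 below untreated cells under both agents.

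CRADD, the adaptor that links PIDD to CASP2, showed no difference that passed the test. Its 21 values lay between 7.50 and 7.78, the untreated libraries at 7.76, 7.68 and 7.65, and the F test gave an adjusted p of 0.234. Group means ran from 7.61 to 7.71, and neighbours in that order overlapped throughout. Differences from untreated cells lay between -0.09 and 0.02, with 95% intervals that reached from -0.20 to 0.13. In the comparison of H2O2 with NCS at 8 h the difference was -0.11 (adjusted p = 0.128), and without replicate 1 of NCS at 8 h it was -0.15 and passed the test (adjusted p = 0.0496).

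APAF1, the scaffold of the apoptosome, was lower at 24 h under both agents and differed between them earlier. Untreated libraries held 10.00, 10.02 and 10.05. The 4 h libraries of H2O2 held 10.10, 10.18 and 10.02, the 8 h libraries 10.12, 10.08 and 10.06, and the 24 h libraries 9.85, 9.91 and 9.89. In NCS, the 4 h libraries held 9.91, 9.92 and 9.87, the 8 h libraries 9.96, 9.98 and 9.91, and the 24 h libraries 9.80, 9.84 and 9.79. No NCS library reached the lowest untreated one, and the H2O2 libraries of 4 h and 8 h all lay above the NCS libraries of the same time. At 24 h the difference from untreated cells was -0.14 (SE 0.03, adjusted p = 0.0025) in H2O2 and -0.21 (SE 0.03, adjusted p = 4.67e-05) in NCS. H2O2 exceeded NCS by 0.20 (SE 0.03, adjusted p = 8.53e-05) at 4 h and by 0.14 (SE 0.03, adjusted p = 0.00382) at 8 h, and by 0.07 (95% interval 0.00 to 0.14, adjusted p = 0.153) at 24 h. At 4 h of NCS the difference from untreated cells was -0.12 (adjusted p = 0.017), and it did not pass the test without replicate 3 of that group (-0.11, adjusted p = 0.0719) or without untreated replicate 3 (-0.11, adjusted p = 0.0703). At 4 h of H2O2 it was 0.08 (adjusted p = 0.0651), and it passed without replicate 3 of that group (0.12, adjusted p = 0.00519) and with quantile normalization (0.12, adjusted p = 0.00559). APAF1 lies at 98645141 to 98735433 on chromosome 12, plus strand (GRCh38), and shares exonic sequence with ANKS1B on the other strand.

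CYCS, which encodes cytochrome c, changed late. The untreated libraries held 11.84, 11.76 and 11.76, and those of 4 h and 8 h of either agent lay between 11.73 and 11.93, overlapping them. At 24 h, the libraries held 11.52, 11.50 and 11.48 after H2O2 and 11.68, 11.63 and 11.68 after NCS. The 24 h groups thus lay below all other libraries, with H2O2 below NCS and no overlap. The differences from untreated cells were -0.29 (SE 0.04, adjusted p = 2.05e-05) and -0.12 (SE 0.04, adjusted p = 0.0327), and H2O2 differed from NCS by -0.17 (SE 0.04, adjusted p = 0.00851). The NCS value did not pass without untreated replicate 1 (-0.09, adjusted p = 0.143) or without replicate 1, 2 or 3 of NCS at 24 h (-0.11 to -0.13, adjusted p = 0.0501 to 0.112), nor with quantile normalization (-0.10, adjusted p = 0.0785). At 4 h of H2O2, CYCS differed from untreated cells by 0.08 (adjusted p = 0.138), and by 0.14 (adjusted p = 0.00931) without replicate 2 of that group, which held 11.75 against 11.91 and 11.93. CYCS has 40 pseudogenes by name in GENCODE, and how reads matching several of them were counted was not tested. The gene lies at 25120091 to 25125361 on the minus strand of chromosome 7 (GRCh38).

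CASP9, the initiator caspase of the apoptosome, rose after NCS from 8 h and after H2O2 at 24 h. Untreated libraries held 7.62, 7.78 and 7.61. The 4 h libraries of H2O2 held 7.70, 7.72 and 7.56, the 8 h libraries 7.54, 7.62 and 7.58, and the 24 h libraries 7.96, 7.81 and 7.87. In NCS, the 4 h libraries held 7.85, 7.57 and 7.76, the 8 h libraries 8.00, 7.93 and 7.95, and the 24 h libraries 8.02, 7.93 and 7.96. The libraries of NCS at 8 h and 24 h and of H2O2 at 24 h all lay above every untreated one, and those of both agents at 4 h overlapped the untreated ones. Against untreated cells the differences were 0.29 (SE 0.06, adjusted p = 0.00195) at 8 h of NCS, 0.30 (SE 0.06, adjusted p = 0.000741) at 24 h of NCS and 0.21 (SE 0.06, adjusted p = 0.011) at 24 h of H2O2. The last did not pass without untreated replicate 1 (0.19, adjusted p = 0.0508), untreated replicate 3 (0.18, adjusted p = 0.0522) or H2O2 24 h replicate 1 (0.17, adjusted p = 0.0618). At 8 h, CASP9 was lower after H2O2 than after NCS, with a difference of -0.38 (SE 0.06, adjusted p = 0.000105), and of -0.40 without the replicate that stood apart. At 24 h this difference was -0.09 (95% interval -0.22 to 0.04, adjusted p = 0.394). CASP9 lies at 15490832 to 15526534 on the minus strand of chromosome 1 (GRCh38) and overlaps CELA2B on the other strand.

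DIABLO, the mitochondrial protein that binds inhibitors of caspases, moved little. Its untreated libraries held 9.98, 10.01 and 9.97, and all 21 values lay between 9.97 and 10.13. The highest group was NCS at 8 h, with 10.13, 10.12 and 10.10, above every other library. There it differed from untreated cells by 0.13 (SE 0.02, adjusted p = 0.000227) and H2O2 differed from NCS at the same time by -0.08 (adjusted p = 0.00828). At 24 h of H2O2 it was 0.07 higher than in untreated cells (adjusted p = 0.0126), and 0.06 without untreated replicate 3 (adjusted p = 0.0528). With library medians aligned, DIABLO at 24 h of H2O2 (0.05, adjusted p = 0.174) and H2O2 against NCS at 8 h (-0.06, adjusted p = 0.138) did not pass, nor did the latter in a fit of only these groups (adjusted p = 0.0635). Without the replicate of H2O2 at 8 h that stood apart, the latter was -0.07 (adjusted p = 0.026). With quantile normalization, DIABLO also passed at 4 h of H2O2 (0.08, adjusted p = 0.00786) and at 24 h of NCS (0.09, adjusted p = 0.00251), where the differences were otherwise 0.03 and 0.04 and did not pass. B3GNT4 overlaps DIABLO on the other strand of chromosome 12, and AC048338.1, listed as protein coding, shares exonic sequence with it on the same strand.

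CASP6, an executioner caspase that cleaves lamins, was lower in treated cells. The untreated libraries held 8.20, 8.22 and 8.25, above all 18 treated libraries, which lay between 7.74 and 8.16. The lowest values, 7.95, 7.84 and 7.74, belonged to 24 h of NCS. The difference from untreated cells there was -0.38 (SE 0.06, adjusted p = 2.31e-05). In H2O2 it was -0.18 (adjusted p = 0.0133) at 4 h, -0.23 (adjusted p = 0.00377; -0.26 without the replicate that stood apart) at 8 h and -0.21 (adjusted p = 0.00616) at 24 h. The first of these did not pass without replicate 2 of H2O2 at 4 h (-0.15, adjusted p = 0.0647). At 8 h of NCS it was -0.16 (adjusted p = 0.0482), which did not pass when any of the 6 libraries compared was left out (adjusted p of 0.0593 to 0.186) and in 14 of 21 such fits in all, and at 4 h it was -0.12 (adjusted p = 0.176). At 24 h H2O2 exceeded NCS by 0.17 (SE 0.06, adjusted p = 0.0383), with overlapping libraries, and this did not pass without replicate 2 or 3 of either group (0.12 to 0.17, adjusted p = 0.0861 to 0.194). With quantile normalization, the differences at 4 h of H2O2 (-0.13, adjusted p = 0.0875), at 8 h of NCS (-0.14, adjusted p = 0.103) and between the agents at 24 h (0.14, adjusted p = 0.111) did not pass. CASP6 lies at 109688622 to 109703583 on the minus strand of chromosome 4 (GRCh38) and shares exonic sequence with MCUB on the other strand.

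Setting the treatments against each other at matched times, 3 of 8 members passed at 4 h, 4 at 8 h and 2 at 24 h, beside 44.4%, 34.1% and 21.9% of all tested genes. Which members these were changed with time. At 4 h they were APAF1, higher after H2O2, and PIDD and CASP2, lower. At 8 h they were APAF1 and CASP2, higher, and CASP9 and DIABLO, lower, and at 24 h CASP6, higher, and CYCS, lower. Within H2O2, 2 members passed between 4 h and 8 h and 4 between 8 h and 24 h, beside 45.7% and 42.6% of genes, and within NCS 3 and 6, beside 13.7% and 29.9%. The change over time of the difference between treatments passed for 4 members from 4 h to 8 h, 4 from 8 h to 24 h and 5 from 4 h to 24 h, beside 32.7%, 21.4% and 39.4% of genes.

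**Figure D3:**
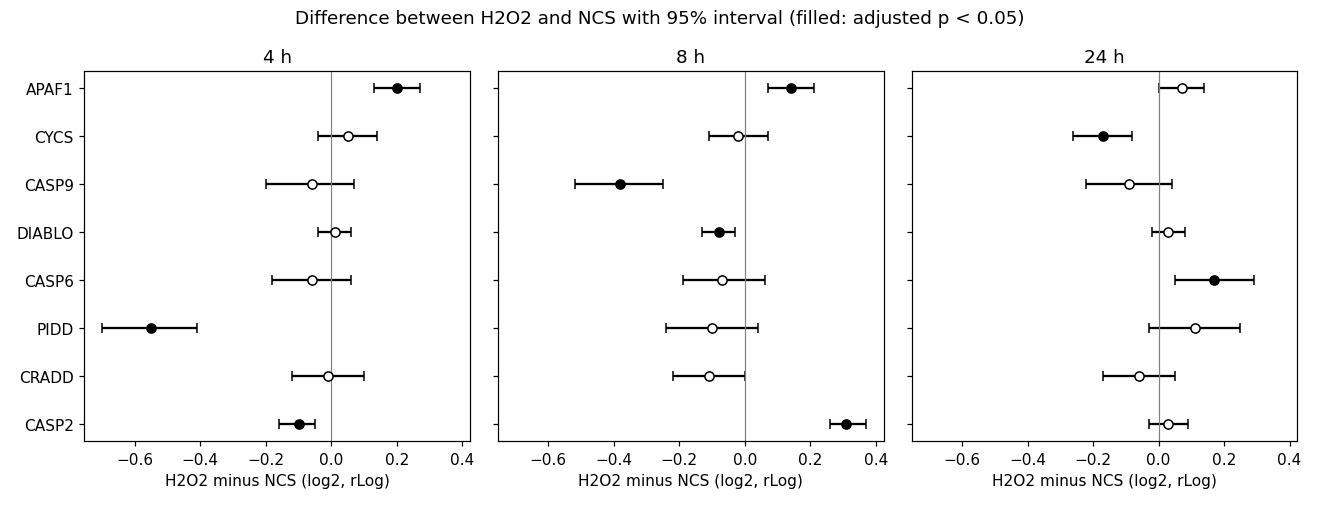
Difference between H2O2 and NCS (x axis, log2 of rLog values) at 4, 8 and 24 h for the 8 genes, with 95% intervals from limma as bars and filled points for an adjusted p under 0.05. PIDD at 4 h (-0.55), CASP9 at 8 h (-0.38) and CASP2 at 8 h (0.31) lie farthest from 0.

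Of 39 other genes of these pathways, grouped in 7 lists, 38 were tested, and BIRC7 was listed at 0 throughout. Relative to untreated cells, 5 genes rose and 16 fell by 24 h of H2O2, and 7 rose and 15 fell by 24 h of NCS, beside 20.2% of all tested genes higher and 19.9% lower in H2O2 and 19.6% higher and 18.4% lower in NCS. The median difference over the 38 was -0.06 in each. Of the 2 apoptotic caspases in these lists, CASP10, an initiator of the death receptor pathway, was 0.71 higher at 4 h of H2O2 (SE 0.07, adjusted p = 1.45e-07), while CASP8 differed there by -0.26 (adjusted p = 0.000157). CASP10 was low, with group means of 4.23 in untreated cells and 4.94 at 4 h of H2O2. It was therefore not part of the alternative run on genes with a mean of at least 5. CASP1 and CASP4, caspases of inflammation and not of the apoptosome, were higher at 24 h of H2O2, CASP1 by 0.55 (adjusted p = 3.62e-08) and CASP4 by 0.54 (adjusted p = 1.63e-09). At 24 h of NCS they were higher by 0.24 (adjusted p = 0.000648) and 0.10 (adjusted p = 0.0438), and the latter did not pass in a fit with no trend (adjusted p = 0.0514) or of only the groups compared (adjusted p = 0.141), nor without any 1 of several libraries, such as replicate 3 of NCS at 24 h (0.06, adjusted p = 0.253). Both were higher after H2O2 than after NCS at that time, by 0.31 and 0.44 (adjusted p = 0.000163 and 1.92e-07), whereas at 8 h CASP1 was lower after H2O2 than after NCS (-0.24, adjusted p = 0.000838).

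Among caspase substrates and effectors, 6 of 10 were lower and 2 higher at 24 h of H2O2, and 5 lower and 2 higher at 24 h of NCS. The falls were led by LMNB1, a nuclear lamin, with -2.45 and -2.65, and PARP1, a DNA repair enzyme, with -0.89 and -0.83. Of 6 tested inhibitor of apoptosis genes, 3 were lower in each at 24 h. Among these, BIRC2 did not pass at 24 h of H2O2 with quantile normalization (-0.03, adjusted p = 0.446). BIRC5, or survivin, which also acts in cell division, differed by -1.90 and -2.07. BIRC3 differed in time and agent: it was 0.76 and 0.50 higher at 4 h and 8 h of NCS and differed by -0.05 and -0.14 at these times of H2O2, and it was lower at 24 h of both (-0.51 and -0.61). XIAP, the best known target of DIABLO, was added outside the naming rule for its role. It differed from untreated cells by -0.08 to 0.07 and did not pass in any of the 6 treated groups, and at 4 h it was 0.15 higher after H2O2 than after NCS (adjusted p = 0.0171).

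The apoptosome regulators PTMA and ANP32A were lower at 24 h, with differences of -0.88 and -0.91 for PTMA and of -0.22 and -0.36 for ANP32A, and the other 4 genes of that list did not pass. In the list of cytochrome c supply, NRF1, a transcription factor for respiratory chain genes, had differences from untreated cells of -0.17, -0.03 and -0.53 in H2O2 and -0.19, -0.55 and -0.65 in NCS, of which that at 8 h of H2O2 did not pass, and it was 0.52 higher after H2O2 than after NCS at 8 h (SE 0.05, adjusted p = 4.67e-07). With quantile normalization, the NRF1 difference at 4 h of H2O2 did not pass (-0.12, adjusted p = 0.0931). Whether NRF1 bears on CASP2 or CYCS was not tested. PPRC1, a coactivator of NRF1, was lower at 24 h of both agents, with differences of -0.46 and -0.41 (adjusted p = 5.66e-12 and 3.29e-11), while at 4 h it was 0.11 higher after H2O2 (adjusted p = 0.00072) and differed by -0.14 after NCS (adjusted p = 0.000184). HCCS, which attaches heme to cytochrome c, was 0.20 higher at 4 h of H2O2 (adjusted p = 1.19e-05). Of the PIDDosome partners and caspase-2 substrates, MDM2, a p53 target and a substrate of caspase-2, was higher in all 6 treated groups, by 0.79, 1.39 and 1.23 in H2O2 and 1.55, 1.13 and 0.99 in NCS. ANKRD26, which recruits PIDD to centrioles, differed by -0.46, -0.48 and -0.22 in H2O2, all past the threshold, and by -0.13, -0.09 and -0.12 in NCS, of which that at 24 h passed (adjusted p = 0.0366). The value at 4 h of NCS passed with library medians aligned (-0.14, adjusted p = 0.0257) and with a mean of at least 5 (-0.13, adjusted p = 0.0382), and that at 24 h did not with quantile normalization (-0.06, adjusted p = 0.305), nor without untreated replicate 1 (-0.09, adjusted p = 0.169) or replicate 1 or 2 of NCS at 24 h (adjusted p = 0.139 and 0.0563). NPM1, a PIDD partner with 45 pseudogenes by name, differed by -0.30 and -0.31 at 24 h of H2O2 and NCS. Earlier it was 0.13 higher at 4 h of H2O2 (adjusted p = 0.000172) and differed by -0.07 at 8 h of NCS (adjusted p = 0.0405), which did not pass without any 1 of the untreated libraries (adjusted p = 0.0741 to 0.11). It was higher after H2O2 than after NCS by 0.13 at 4 h and 0.11 at 8 h (adjusted p = 0.000137 and 0.00107).

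The genes whose 7 group means correlated best with those of PIDD, among 11681 genes with a mean of at least 5, were THSD1 (Pearson r = 0.9878), FBXO22 (0.9682) and ACER2 (0.9600). THSD1 had means of 7.80 in untreated cells and 9.13 at 4 h of NCS, its highest group as for PIDD. For CASP2 they were ITPRIPL1 (0.9941), TTF1 (0.9937) and AFG3L2 (0.9895). The mean of TTF1 was 8.78 in untreated cells, 8.79 at 8 h of H2O2, 8.45 at 24 h of H2O2 and 8.40 at 24 h of NCS. The 7 points of these correlations share the same libraries, and the best of many genes reach high values by selection, so they are a description.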

How the data were processed

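hTERT-HPNE RNA was sequenced by the authors as stranded, paired-end mRNA libraries, aligned with HISAT2 and counted with htseq-count, and DESeq2's rLog was applied. The deposited values are therefore log2 values, normalized for library size by the authors, and per the labels hg19 is the build; the annotation and strand setting are not given in the sources used here. The members and lists were chosen with earlier results of these data known.

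Here, 19694 genes that were not 0 in every library were tested with limma 3.58.1 (R 4.3.3) in one fit of 7 groups, using a trend of variance on mean, and p-values were adjusted by Benjamini-Hochberg over those genes. Calls needed an adjusted p under 0.05. Since the files hold rLog values, no count test was used. Errors are standard errors and 95% intervals of that fit. With 3 libraries against 3, a two-sided exact permutation test cannot give a p below 0.1, which was the value for every called comparison without overlap. The study's methods call the replicates biological, and the labels only number them and do not say whether same-numbered ones were handled together. Tested on simulated data (H2O2 4 h against untreated cells, 19694 genes), 82 of 100 changes of 0.3 and 100 of 100 changes of 1 were recovered, and 8.54% of calls were unplanted. That share is above the 0.05 aimed at. Noise was drawn independently for each gene, and changes were planted only in genes with a mean over 5. In the data, 45.9% of genes were called there, far more than were planted. Changes under 0.3 were not tried, so recovery of smaller differences is unknown.

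All 8 members are named. Other genes were named from each list among those past the threshold with the 3 largest differences in a comparison, not all of which are named, with MDM2, CDKN1A, HMOX1 and, for its role, XIAP in addition. Some genes of these pathways are not reported here. Loci came from GENCODE 29 on GRCh38 and promoters from RefSeq on GRCh38.p14, so neither is on the build of the files. Alternatives were aligned library medians, quantile normalization, a mean of at least 5, no trend, only the groups compared, a replicate block, a log2 difference over 0.58 and each library left out. Calculations outside R used Python 3.11.15. No column was left out. The other assays of the study were not analysed here.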

Additional observations from a re-analysis of the deposited data

Results flagged for a closer look

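The difference between H2O2 and NCS changed with time for the genes below, by limma's test of the change itself (adjusted p under 0.05), and each such value is the later difference minus the earlier one. From 4 h to 8 h the changes were -0.32 for CASP9 (adjusted p = 0.0104), -0.09 for DIABLO (adjusted p = 0.0362), 0.45 for PIDD (adjusted p = 0.00126) and 0.42 for CASP2 (adjusted p = 2.54e-07). From 8 h to 24 h they were 0.29 for CASP9 (adjusted p = 0.0249), 0.11 for DIABLO (adjusted p = 0.0182), 0.24 for CASP6 (adjusted p = 0.0439) and -0.28 for CASP2 (adjusted p = 5.17e-05). From 4 h to 24 h they were -0.13 for APAF1 (adjusted p = 0.0409), -0.22 for CYCS (adjusted p = 0.00742), 0.23 for CASP6 (adjusted p = 0.029), 0.66 for PIDD (adjusted p = 2.4e-05) and 0.14 for CASP2 (adjusted p = 0.00905). Those of PIDD, of CASP2 and of CYCS passed also when any 1 library was left out, as did that of CASP9 from 4 h to 8 h. That of CASP6 from 8 h to 24 h did not pass in 12 of 21 such fits, without any 1 of the untreated libraries, replicate 3 of H2O2 at 4 h, 1 of H2O2 at 8 h, 2 or 3 of H2O2 at 24 h, 3 of NCS at 4 h, and 2 or 3 of NCS at 8 h or 24 h (0.18 to 0.24, adjusted p up to 0.129). From 4 h to 24 h it did not pass in 6, without replicate 2 or 3 of H2O2 at 4 h or 24 h, 2 of NCS at 4 h or 3 of NCS at 24 h (up to 0.087). That of DIABLO from 4 h to 8 h did not pass in 7, without replicate 3 of H2O2 at 4 h, 1 or 2 of H2O2 at 8 h, or 1 or 2 of NCS at 4 h or 8 h (up to 0.0923), and from 8 h to 24 h in 1, without replicate 1 of NCS at 24 h (0.0521). That of APAF1 did not pass in 8, without replicate 1 or 2 of H2O2 at 4 h, 1 or 3 of H2O2 at 24 h, 1 or 3 of NCS at 4 h, or 1 or 2 of NCS at 24 h (-0.09 to -0.13, up to 0.121). That of CASP9 from 8 h to 24 h did not pass in 4, without replicate 1 of H2O2 at 8 h or 24 h, 1 of NCS at 8 h or 2 of NCS at 24 h (up to 0.0695).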

How the results depend on the processing

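No called difference of a member changed direction under any alternative run. The counts of members past the adjusted p moved by more than 1.5 times in the following cases. With quantile normalization, H2O2 against NCS at 24 h gave 1, and the change of the difference between treatments gave 2 from 8 h to 24 h and 3 from 4 h to 24 h. In a fit of only the groups compared, H2O2 against NCS at 24 h gave 1. With a log2 difference over 0.58 required as well, H2O2 gave 0, 1 and 1 at 4, 8 and 24 h, NCS gave 1, 1 and 1, the change from 4 h to 24 h gave 1, and all other comparisons of 2 groups or changes over time gave 0. Of all tested genes, 2.91%, 2.44% and 4.56% passed this limit in H2O2 and 1%, 1.29% and 3.97% in NCS. The share was 3.13% for the change from 4 h to 24 h and 0.147% to 2.72% where the count was 0. By construction this added limit cannot raise a count. Shares of all tested genes are not given for the other alternative runs. With 1 library left out, the counts ran from 1 to 3 for NCS at 4 h, from 1 to 2 for H2O2 against NCS at 24 h, from 2 to 6 for the change from 8 h to 24 h and from 3 to 5 for that from 4 h to 24 h. Changes of the difference between treatments that did not pass under other settings were as follows. With library medians aligned they were those of DIABLO from 4 h to 8 h (-0.07, adjusted p = 0.282) and from 8 h to 24 h (0.06, 0.287) and of CASP2 from 4 h to 24 h (0.11, 0.0639). With quantile normalization they were those of CASP9 (0.23, 0.0849) and CASP6 (0.119) from 8 h to 24 h, and of CASP6 (0.17) and CASP2 (0.09, 0.0749) from 4 h to 24 h. That of DIABLO from 4 h to 8 h did not pass with a mean of at least 5 (0.0881), in a fit of only the groups compared (0.0557) or without the replicate of H2O2 at 8 h that stood apart (0.0636), where that of PIDD was 0.56. That of CASP6 from 8 h to 24 h did not pass with no trend (0.0512) or in a fit of only the groups compared (0.101), nor did that of APAF1 from 4 h to 24 h in the latter (0.0692). That of CYCS from 8 h to 24 h passed with library medians aligned (-0.20, 0.00335) and with a mean of at least 5 (-0.15, 0.0316). The cause was not tested. Whether same-numbered libraries were handled as pairs cannot be told from these values, since the deviations are from means of few libraries. Deviations of same-numbered libraries correlated between -0.142 and 0.253 in 27 pairs, and in none of 9 comparisons was every pair over 0.1. With the replicate block, the members past the threshold numbered 4 at 4 h of H2O2 and 4 at 8 h of NCS, since APAF1 passed (adjusted p = 0.0456) and CASP6 did not (0.0554), and no other call of a member changed. The depth of the libraries is unknown.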
